A study of Rattus norvegicus with 6 samples.

Results

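The genes described here are 32 lysosomal hydrolases and lysosomal membrane proteins, listed by what they do with earlier results of these data known. Their transcripts were measured in renal cortex, which holds the glomeruli and most of the proximal tubules, from male Sprague-Dawley rats. The 3 vehicle rats received corn oil for 4 weeks, and the 3 treated rats received phenolphthalein, a pH indicator dye formerly sold as a laxative, at 1000 mg/kg/day for 4 weeks. All 6 rats were 5 weeks old when bought and were kept on a basal diet, and each array held total RNA of 1 rat labelled with the dye Cy3. The comparison asks whether transcripts of these genes differ between treated and vehicle cortex. Of the 32 genes, 29 were matched to a probe through its RefSeq accession. Naglu, Sgsh and Ids, which degrade heparan sulfate, were matched to none and are not analysed here. All 29 passed the filter on dim probes, which kept 34412 items of the array, 12264 of them named genes.

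Lysosomes are acidic organelles in which hydrolases break down proteins, glycans and lipids delivered by endocytosis and autophagy. Proximal tubule cells, which take up filtered protein, are rich in them, and macrophages use the same enzymes to digest engulfed material. Most soluble hydrolases are carried to the lysosome by mannose 6-phosphate receptors, a proton pump called the V-ATPase acidifies the lumen, and the transcription factor TFEB and its relatives activate many lysosomal genes through an E-box motif. Loss of a single hydrolase can cause a lysosomal storage disease, and several members are known by the lipid or glycan that they clear.

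The TFEB motif was searched in the stretch of 250 bases before the start of each gene in RefSeq promoters of the GRCr8 build, to show which members carry it beside their measured values. The table held 26 of the 32 members. Ctsb, Hexa, Arsa, Arsb, Asah1 and Psap were absent from it and were not searched. The E-box core of the motif, CACGTG, is its own reverse complement. It was held by 6 of the 26 members (23.1%), against 5.59% of all 33469 promoters. The same 6 members, Lamp1, Ctsd, Gaa, Glb1, Mcoln1 and Sgsh, held the longer TCACGTG on either strand (2.79% of all promoters), which contains the core. The palindrome TCACGTGA was found in Lamp1 and Ctsd (7.69% of the members, 0.657% of all promoters). Lamp1, which encodes the main glycoprotein of the lysosomal membrane, held 5 cores, the first beginning 183 and the last 38 bases before the start of the gene. The stretch that spans them lies at chr16:83075084-83075258, minus strand, and is shown because it has more cores than any other member, with each core in capitals.
Lamp1: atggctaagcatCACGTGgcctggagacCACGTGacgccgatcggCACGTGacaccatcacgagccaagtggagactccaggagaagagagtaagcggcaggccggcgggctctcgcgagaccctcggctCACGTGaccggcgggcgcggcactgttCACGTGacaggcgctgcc
The 4 other members with a core and a tested probe are shown by a short window around 1 core, in the same notation. They lie at chr1:206968822-206968843 on the minus strand (Ctsd, whose window ends at the start of the gene), chr10:105028276-105028305 on the plus strand (Gaa), chr8:122963606-122963635 on the plus strand (Glb1) and chr12:6358224-6358253 on the plus strand (Mcoln1).
Ctsd: tcgcccgcgtctCACGTGaccc
Gaa: ccgcccacaaacCACGTGacccacgctgcc
Glb1: cggctccggagtCACGTGgcctgcagaggc
Mcoln1: cgtcaagcttgtCACGTGttcgacccaggc
The log2 differences between phenolphthalein and vehicle of these 5 genes lay on both sides of 0. They were -0.20 for Gaa, -0.17 for Glb1, -0.07 for Lamp1, -0.02 for Ctsd and 0.09 for Mcoln1. A match of letters does not show binding, and none of these arrays measures TFEB activity.

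The arrays resembled each other closely (Pearson's r across the tested items between 0.987 and 0.992 over all pairs), 64.8% to 72.1% of their probes were well above background, and no probe was saturated. With 3 arrays in each group, their number limits how precise any value can be. All vehicle arrays lay on 1 slide, phenolphthalein rat 1 on another and phenolphthalein rats 2 and 3 on a further one, so slide and group cannot be told apart. Probes of defining genes of the renal cortex, Lrp2 and Slc34a1 of the proximal tubule, Umod of the thick limb and Nphs1 of the podocyte, were all detected, as was Aqp2 of the collecting duct. In bulk tissue, fewer cells of a type and less RNA per cell cannot be told apart.

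No lysosomal gene passed the threshold. With limma's test across all items, 0 of 29 members were higher and 0 lower at a Benjamini-Hochberg adjusted p under 0.05, where 0% of all items were called in either direction. The smallest adjusted p among the members was 0.496, that of Ctsz. Below that threshold the members leaned to lower values in phenolphthalein, with a lower mean in 19 of 29 (65.5%), or 23 of 29 with normexp background correction. The share was 54.1% of all items and 55.4% of named genes. In the lists of other lysosomal, V-ATPase, sorting, regulator and autophagy genes described below, it ranged from 55% (V-ATPase subunits) to 75% (other lysosomal membrane proteins). The share was 55% of the proximal tubule markers and 82.6% of the macrophage and monocyte markers. The members' median log2 difference was -0.07, against -0.02 over all items. At an unadjusted p under 0.05, 7 members were lower (24.1%, against 4.92% of all items and 5.85% of named genes). At that p, 0 members were higher (3.94% of all items and 4.05% of named genes). The 7 were the proteases Ctsz, Ctsb and Lgmn, the glycosidases Man2b1, Glb1 and Gaa, and the saposin precursor Psap. This count moved with single rats: it was 3 without vehicle rat 1, 2 without vehicle rat 3 and 2 without phenolphthalein rat 1. It was 5 with quantile normalization, 4 with the slide as a random block, and 1, Ctsz, without the intensity trend of the variance.

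The differences were small. Their 95% intervals came from the limma fit with its intensity trend and were not adjusted for the number of genes. They rest on the spread within each group, so they do not cover a shift between slides, which cannot be told apart from group. The interval lay within 0.5 log2 units of 0 for 26 of the 29 members (89.7%), against 57.3% of all items and 64.8% of named genes. The 3 exceptions were Ctsz, Arsb and Lgmn, whose intervals reached -0.86, -0.57 and -0.50. The median standard error of the members was 0.08 log2 units, against 0.13 over all items and 0.11 over named genes. All levels below are log2 intensities relative to the 75th percentile of the array. A level of 0 is that percentile, and levels of different probes are not compared. Summed over all tested items, intensity relative to that percentile was 239298 to 240695 in the vehicle arrays and 233001 to 238600 in the phenolphthalein arrays.

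**Figure D1:**
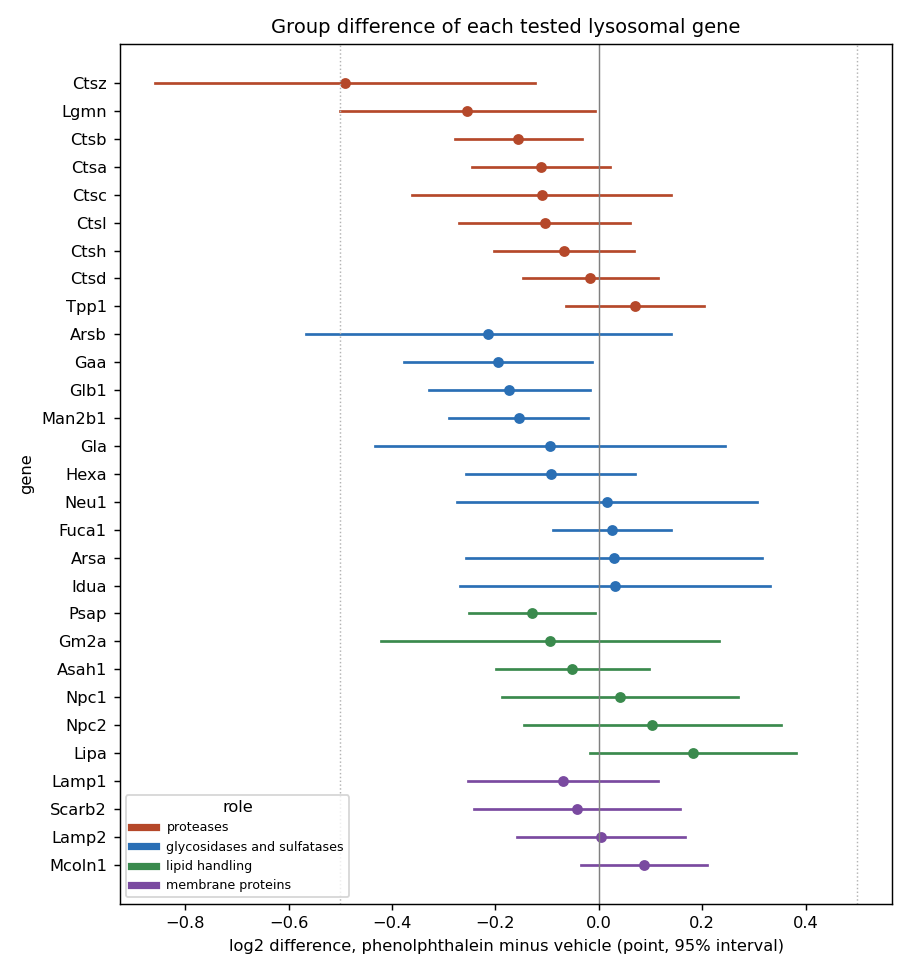
Difference between phenolphthalein and vehicle for each of the 29 tested lysosomal genes (log2 units, limma estimate as a point and its unadjusted 95% interval as a line, 3 rats per group), coloured by role; dotted lines mark 0.5 log2 units on either side of 0. The intervals of 26 genes stay between the dotted lines, and those of Ctsz, Arsb and Lgmn pass the left one.

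Of the 9 lysosomal proteases, 8 had lower values in phenolphthalein and 1, Tpp1, a higher one, with a median log2 difference of -0.11, or -0.05 without phenolphthalein rat 1. Ctsz, cathepsin Z, a carboxypeptidase abundant in myeloid cells, had the largest difference of all members. Its level was -1.05, -0.61 and -0.90 in vehicle rats 1 to 3 and -1.59, -1.15 and -1.30 in phenolphthalein rats 1 to 3. The groups did not overlap, and the lowest value was that of phenolphthalein rat 1. The means were -0.85 ± 0.22 and -1.35 ± 0.22 (SD, n = 3 each), which differ by -0.49 log2 units or 0.711-fold (limma SE 0.16, adjusted p = 0.496). Ctsz was measured by a single probe, and its difference lay between -0.59 and -0.37 over all alternative settings.

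Ctsb, cathepsin B, a cysteine protease of broad expression, stood at 8.64, 8.58 and 8.70 in the vehicle rats and at 8.40, 8.54 and 8.52 in the phenolphthalein rats. These groups did not overlap either, although phenolphthalein rat 2 lay only just under vehicle rat 2. The log2 difference was -0.16 (SE 0.05, limma adjusted p = 0.510). Lgmn, legumain, an asparaginyl endopeptidase that processes other cathepsins in the proximal tubule, stood at 6.75, 6.61 and 6.41 in vehicle and at 6.34, 6.48 and 6.19 in phenolphthalein. Here the groups overlapped, since phenolphthalein rat 2 was above vehicle rat 3, and the log2 difference was -0.25 (SE 0.10, limma adjusted p = 0.559). Ctsa, cathepsin A, which also protects beta-galactosidase and neuraminidase in a complex, was at 8.41, 8.36 and 8.38 in vehicle and at 8.16, 8.35 and 8.31 in phenolphthalein. Its groups did not overlap, its difference was -0.11 (SE 0.06), and all 3 of its probes had lower values, between -0.14 and -0.09.

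The remaining proteases had overlapping groups. Ctsc, which activates granule proteases of leukocytes, differed by -0.11 and the endopeptidase Ctsl by -0.10, while Ctsh, an aminopeptidase, differed by -0.07. In Ctsc the phenolphthalein rats ran from 4.16 to 4.59, a range that enclosed all vehicle values (4.44 to 4.50). The difference of Ctsc was -0.0065 without phenolphthalein rat 1, and that of Ctsl was -0.04 without vehicle rat 1. Ctsd, cathepsin D, the major aspartic protease of the lysosome, differed by -0.02 with a 95% interval of -0.15 to 0.11. Tpp1, the tripeptidyl peptidase missing in a form of neuronal ceroid lipofuscinosis, differed by 0.07, and its second probe by -0.04.

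Among the enzymes that take glycans apart, 6 of the 10 tested had lower values, with a median of -0.09, or -0.04 without vehicle rat 3. Man2b1, the lysosomal alpha-mannosidase of glycoprotein breakdown, was at 6.43, 6.32 and 6.40 in vehicle and at 6.14, 6.30 and 6.24 in phenolphthalein. Its highest phenolphthalein value, that of rat 2, was just under its lowest vehicle value. The log2 difference was -0.16 (SE 0.06, limma adjusted p = 0.532), and its other probe gave -0.15. Glb1, the beta-galactosidase that trims GM1 ganglioside and keratan sulfate, was at 5.16, 4.99 and 5.06 in vehicle and at 4.90, 4.81 and 4.98 in phenolphthalein. The groups were again just apart, the means differing by -0.17 (SE 0.07, limma adjusted p = 0.537), and the second probe gave -0.28. Gaa, the acid alpha-glucosidase that degrades glycogen and is lost in Pompe disease, was at 2.79, 2.58 and 2.79 in vehicle and at 2.47, 2.55 and 2.55 in phenolphthalein. The gap between its groups was narrow, because vehicle rat 2 lay near the phenolphthalein values. Its difference was -0.20 (SE 0.08, limma adjusted p = 0.547).

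Arsb, the sulfatase of dermatan and chondroitin sulfate, had a wider spread. Its level was 3.77, 3.57 and 3.93 in vehicle and 3.25, 3.77 and 3.62 in phenolphthalein. Phenolphthalein rat 1 alone was below the vehicle range, and the difference was -0.21 (SE 0.15, limma adjusted p = 0.710). The difference was -0.07 without that rat and -0.33 without phenolphthalein rat 2. Hexa, the alpha subunit of hexosaminidase A, and Gla, the alpha-galactosidase lost in Fabry disease, each differed by -0.09 with overlapping groups. The other 4 lay within 0.04 of 0. They were Fuca1, the fucosidase, at 0.03, Arsa, the sulfatase of sulfatide, at 0.03, Idua, the iduronidase of heparan and dermatan sulfate, at 0.03, and Neu1, the lysosomal neuraminidase, at 0.02. For Fuca1 the interval of the difference, -0.09 to 0.14, was the narrowest of these 4. In Arsa, Fuca1 and Neu1 the gene's probes differed in sign.

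The genes of lipid handling were divided, 3 lower and 3 higher, with a median of -0.01. Psap, prosaposin, the precursor of the saposins that present sphingolipids to their hydrolases, was at 4.11, 4.22 and 4.17 in vehicle and at 4.04, 4.06 and 4.02 in phenolphthalein. Every phenolphthalein value lay below every vehicle value, and the phenolphthalein rats differed little among themselves (SD 0.02). The log2 difference was -0.13 (SE 0.05, limma adjusted p = 0.549). Lipa, the lysosomal acid lipase that frees cholesterol from its esters, had a difference of the opposite sign, the largest positive one of all members. It was at 2.82, 3.02 and 3.09 in vehicle and at 3.11, 3.12 and 3.25 in phenolphthalein. The groups were apart by a small margin between vehicle rat 3 and phenolphthalein rat 1. The difference was 0.18 (SE 0.08, limma adjusted p = 0.595), with an interval of -0.02 to 0.38.

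Npc2, the soluble carrier that receives cholesterol released in the lysosome, was at 2.43, 2.14 and 2.21 in vehicle and at 2.52, 2.33 and 2.24 in phenolphthalein. The groups overlapped, and the difference was 0.10 (SE 0.10, limma adjusted p = 0.798). Npc1, its membrane partner, differed by 0.04. Its 6 tested probes ranged from -0.02 to 0.17 and differed in sign. Asah1, acid ceramidase, differed by -0.05 and Gm2a, the activator protein for ganglioside GM2, by -0.09. In Gm2a the phenolphthalein rats ran from -0.89 to -0.36 and enclosed the vehicle range of -0.61 to -0.52.

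The 4 membrane proteins differed little. Mcoln1, the lysosomal calcium channel TRPML1, was at 3.86, 3.79 and 3.86 in vehicle and at 3.94, 3.95 and 3.87 in phenolphthalein. The groups did not overlap, but the margin between vehicle rat 3 and phenolphthalein rat 3 was narrow, and the difference was 0.09 (SE 0.05, limma adjusted p = 0.664). Lamp1 was at 5.72, 5.94 and 5.71 in vehicle and at 5.72, 5.80 and 5.64 in phenolphthalein, a difference of -0.07 with an interval of -0.25 to 0.11. Its paralog Lamp2, which also serves chaperone-mediated autophagy, differed by 0.00458 with an interval of -0.16 to 0.17. Scarb2, the receptor that carries glucocerebrosidase to the lysosome, differed by -0.04, with an interval of -0.24 to 0.16.

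**Figure D2:**
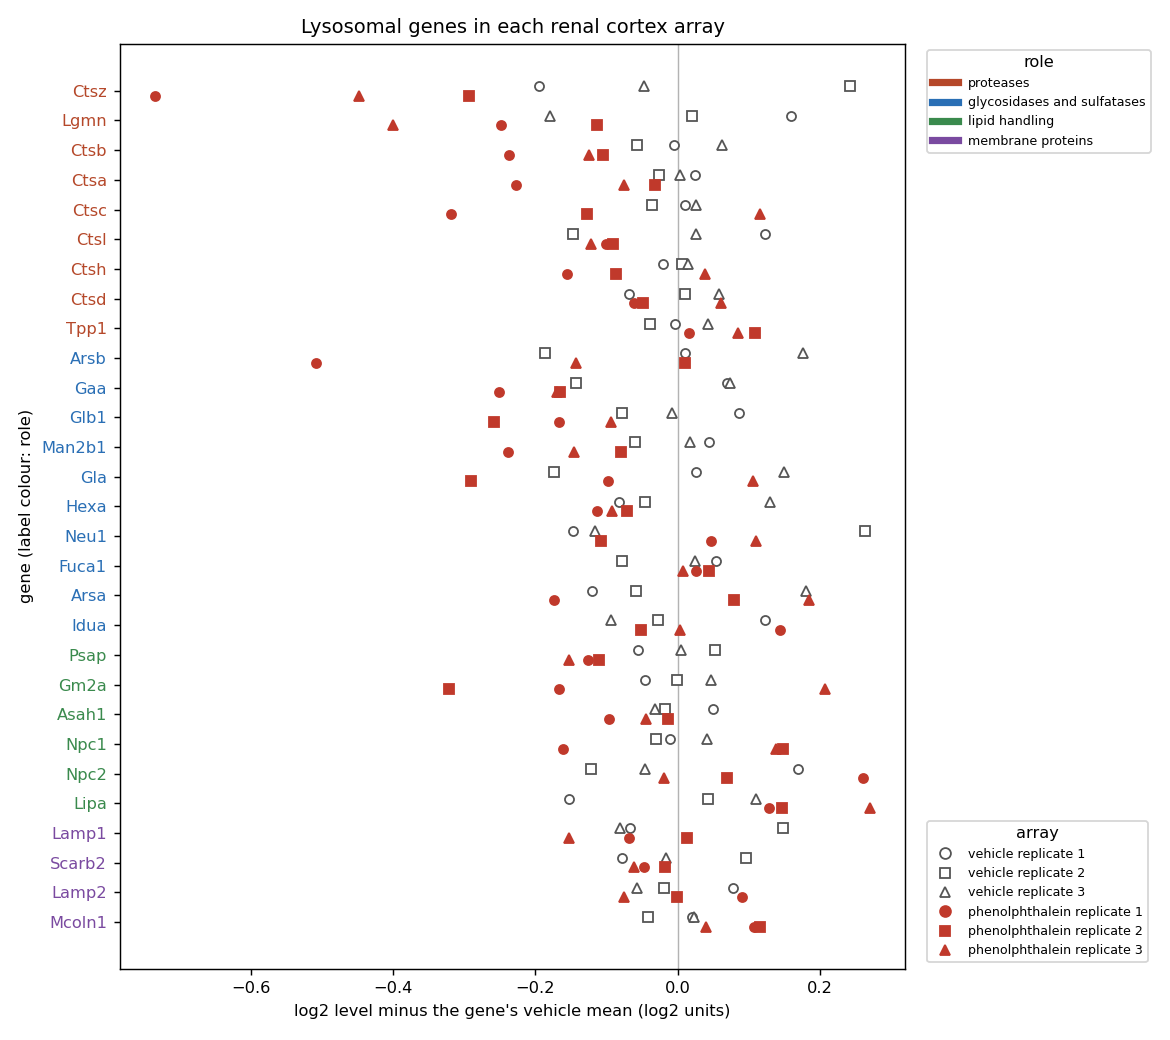
Level of each tested lysosomal gene in each array, as the log2 level minus the gene's own vehicle mean; open grey symbols are the 3 vehicle rats, filled red symbols the 3 phenolphthalein rats, and gene names are coloured by role. Phenolphthalein rat 1 (red circles) has the lowest value in 12 of the 29 genes, and the red and grey symbols overlap in 20 genes.

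Counted over arrays, groups that did not overlap were seen in 7 members on the lower side (24.1%, against 9.03% of all items) and in 2 on the higher side (6.90%, against 6.64% of all items). The lower ones were Ctsz, Ctsb, Ctsa, Man2b1, Glb1, Gaa and Psap, and the higher ones Lipa and Mcoln1. The 2 on the higher side overlapped with normexp background correction, and 4 did not overlap without phenolphthalein rat 1. Averaged over the 29 members after subtracting the vehicle mean of each gene, the level was -0.0004, -0.02 and 0.02 in the vehicle arrays and -0.12, -0.06 and -0.03 in the phenolphthalein arrays. Phenolphthalein rat 1, alone on its slide, thus lay lowest and held the lowest value of 12 members. It also held the lowest value of 9148 of the 34412 items and the highest value of 7236, each more than any other array. Within the phenolphthalein group it was lower than the other 2 rats by a median of -0.07 over the members, where the median difference between the groups was -0.07. Over all items these 2 medians were -0.02 and -0.02. For the macrophage and monocyte markers described below, this rat differed by -0.05 and the groups by -0.44. Without this rat the members' median difference was -0.04. Its part in the result was not tested beyond that value.

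Other parts of the lysosomal system, taken from lists made by function with earlier results known, also had no member past the threshold. Of 30 other hydrolases tested, 20 had lower values (median -0.05), and 3 were lower and 0 higher at an unadjusted p under 0.05. These 3 were the dipeptidyl peptidase Dpp7 (-0.20), the sialate esterase Siae (-0.20) and Ctss, a cathepsin of antigen-presenting cells (-0.19). Of 24 other membrane proteins, 18 had lower values (median -0.08, or -0.04 with normexp), with 3 lower and 0 higher at an unadjusted p under 0.05. They were Cd68, the macrosialin of macrophages (-0.57, SE 0.11, limma adjusted p = 0.433), Laptm5, a lysosomal protein of blood cells (-0.37), and the sialic acid exporter Slc17a5 (-0.36). With the median of a gene's probes, Siae differed by -0.12 and Slc17a5 by -0.16, and neither was below that p. Ctss, Cd68 and Laptm5 also belong to the macrophage marker list.

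The V-ATPase had 2 subunit genes lower and 2 higher at an unadjusted p under 0.05 out of 20 tested, with a median of -0.01. The 3 with the smallest p were Atp6v1c1 (-0.20), Atp6v0a2 (-0.21) and Atp6v1c2 (0.33), an isoform of the C subunit with restricted expression. Atp6v1c1 and Atp6v1c2 encode alternative forms of the same subunit, and neither gene's groups overlapped on its brightest probe. With the median of a gene's probes the difference of Atp6v1c1 was -0.0092, at an unadjusted limma p of 0.872. Atp6v1c2 stood at 0.42, 0.45 and 0.55 in the vehicle rats and at 0.76, 0.63 and 1.0 in the treated ones. The vehicle mean of Atp6v1c1 was 3.92 ± 0.07 and its phenolphthalein mean 3.72 ± 0.04 (SD, n = 3 each).

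Genes that sort enzymes to the lysosome (17 tested, median -0.04, none past an unadjusted p of 0.05 in limma) included the mannose 6-phosphate receptors Igf2r (-0.06) and M6pr (-0.01). The sorting genes with the smallest p were Cln8, a transport factor of the endoplasmic reticulum (-0.19), the adaptor subunit Ap1m1 (-0.11) and the retromer subunit Vps35 (-0.07). Regulators of lysosomal biogenesis (21 tested, median -0.03, 0 at an unadjusted p under 0.05 in limma) included Tfeb at -0.04, Mitf at 0.02 and Mtor at -0.04. The smallest p values there belonged to Tfec, a TFEB relative of macrophages (-0.32), the coactivator Ppargc1a (0.28) and Nprl2, an inhibitor of mTORC1 (0.10). Of 29 autophagy genes (median -0.01), 1 was higher at an unadjusted p under 0.05, the LC3 relative Gabarapl1 (0.12), followed by Map1lc3b (-0.12) and the cargo receptor Nbr1 (0.15). The sorting, regulator and autophagy lists had medians within 0.05 of 0. Lower values were seen in 12 of 17 sorting genes (70.6%), 15 of 21 regulators (71.4%) and 16 of 29 autophagy genes (55.2%). These lists overlap the members in no gene.

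**Figure D3:**
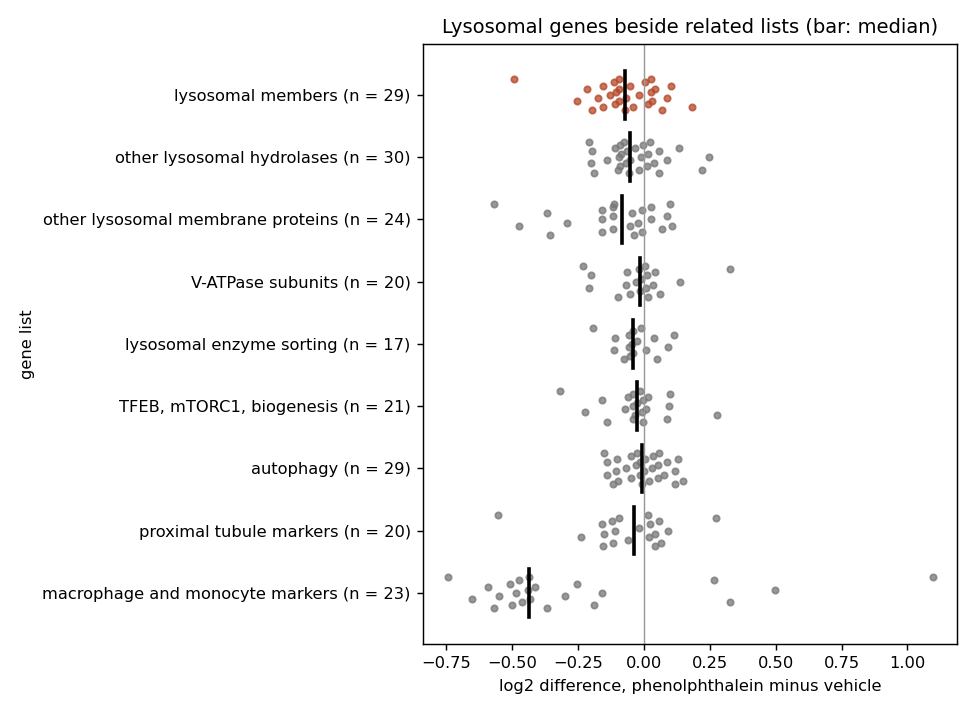
Log2 difference between phenolphthalein and vehicle of each tested gene in the lysosomal set and in 8 related lists (1 point per gene, vertical scatter for legibility, black bar for the median). The lysosomal members center on -0.07, and the macrophage and monocyte markers on -0.44.

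Most markers of macrophages and monocytes had lower values in phenolphthalein. Of the 24 listed markers 23 were tested, all but Cd163, and 19 had lower values (median -0.44), and 15 were lower and 1 higher at an unadjusted p under 0.05. Their summed level, the sum of intensities relative to the 75th percentile, was between 157 and 199 in vehicle and between 125 and 139 in phenolphthalein. The brightest marker, Lyz2, weighs most in this sum. Its level was 6.61, 6.74 and 6.28 in vehicle and 6.17, 6.08 and 6.07 in phenolphthalein. Cd68 stood at 1.17, 1.51 and 1.34 in vehicle and at 0.74, 0.92 and 0.66 in phenolphthalein, Csf1r differed by -0.16, and both were well above background on all 6 arrays. Mrc1, the macrophage mannose receptor, was the 1 marker higher at that p. It stood at -2.11, -2.22 and -2.90 in the vehicle rats and at -1.06, -1.37 and -1.50 in the treated ones, so its groups did not overlap, and its limma adjusted p was 0.434. The other 3 markers with higher values had overlapping groups. They were Msr1, a scavenger receptor (0.50, SE 0.43), Cd14, a lipopolysaccharide co-receptor (0.33, SE 0.14), and the integrin Itgam (0.27, SE 0.54). Msr1 and Itgam were dim, at levels between -5.27 and -3.98 and between -6.71 and -4.78. Ccr2, a marker with lower values (-0.74, SE 0.32), was also dim, between -6.10 and -4.64. Vehicle rat 2 had the highest value of 17 of the 23 markers. Of the proteases, it had the highest vehicle level of Ctsz, the lowest of Ctsb, Ctsa, Ctsc, Ctsl and Tpp1, and an intermediate one of Ctsd, Ctsh and Lgmn. Among all 6 arrays, vehicle rat 2 held the lowest value of 5 of the 29 members and the highest value of 5. The part of macrophage content in the values of Ctsz and the other proteases was not tested.

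Proximal tubule markers had a median difference of -0.04 over 20 genes, or -0.08 with the median of a gene's probes, with 2 lower and 1 higher at an unadjusted p under 0.05. Lrp2, the endocytic receptor megalin, differed by -0.11, and Slc34a1, the phosphate cotransporter, by -0.12. The mean of the tubule markers, relative to the vehicle mean, was -0.12, -0.05 and -0.00047 in the phenolphthalein rats. The lysosomal genes were at -0.12, -0.06 and -0.03. The same order of rats was seen for V-ATPase subunits (-0.08, -0.03 and 0.05) and enzyme sorting genes (-0.07, -0.04 and 0.02). It was also seen for distal nephron and collecting duct markers (-0.18, -0.12 and 0.13) and autophagy genes (-0.02, -0.01 and 0.02). Other lysosomal hydrolases (-0.02, -0.02 and -0.06) and other lysosomal membrane proteins (-0.16, -0.04 and -0.13) had another order. Among the members, the glycan and lipid groups kept this order of rats. The members' proteases (-0.23, -0.09 and -0.10) and membrane proteins (0.02, 0.03 and -0.06) did not. The summed level of the tubule markers was between 3229 and 3271 in vehicle and between 3175 and 3301 in phenolphthalein. The part of tubule content in the lysosomal values was not tested. Of the other marker lists, distal nephron and collecting duct genes had a median of 0.01 (10 tested), podocyte and endothelial genes of 0.02 (12 tested), T and B cell genes of -0.59 (10 tested) or -0.23 with normexp, and liver genes of 0.60 (14 tested). Leaving out 1 rat moved the liver median to between -0.0014, without phenolphthalein rat 2, and 1.11, without phenolphthalein rat 1. The liver list spread widely between rats of 1 group, with albumin at 1.82, 0.91 and -0.08 in vehicle and at 0.67, 3.17 and 1.04 in phenolphthalein, and Alb differed by -0.03 without phenolphthalein rat 2.

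**Figure D4:**
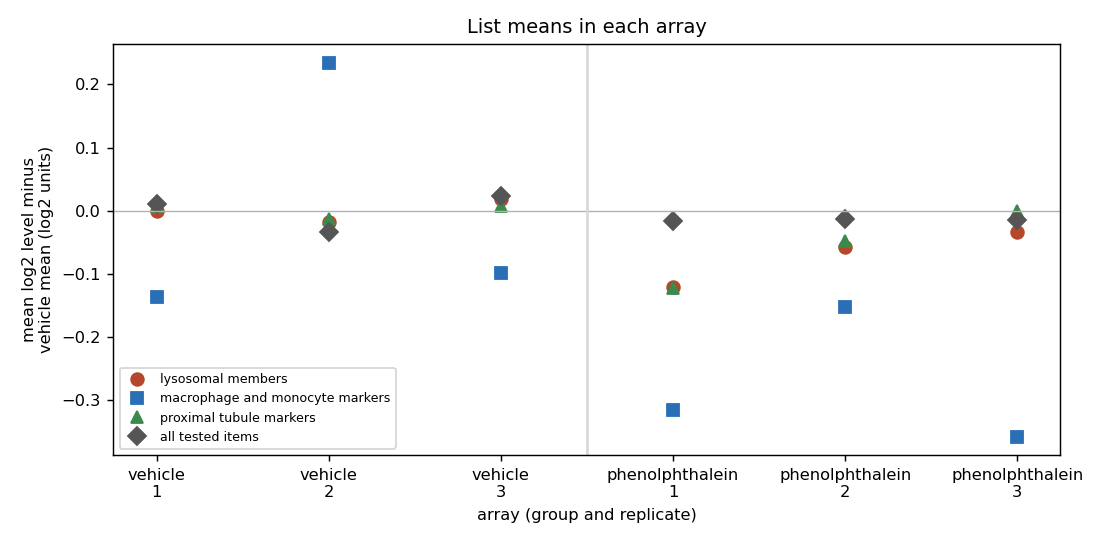
Mean log2 level of 4 gene sets in each array, relative to the vehicle mean of each gene. The lysosomal members (circles) and the proximal tubule markers (triangles) are both at -0.12 in phenolphthalein rat 1, while the macrophage and monocyte markers (squares) range from -0.14 to 0.23 in vehicle and from -0.36 to -0.15 in phenolphthalein.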

How the data were processed

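Per the file headers, Agilent Feature Extraction 10.7.1.1 made the authors' scanner files, in which the intensity of a spot has its background removed and a spatial trend corrected. Nothing in them is normalized between arrays. The submitters' processing notes list Agilent Feature Extraction 10.7. Flags for outliers and for spots well above background come from the same files. The deposited value table holds a ratio whose making is not given in the sources used here. Each of its 6 columns equalled intensity over the 75th percentile in a scanner file of its own group but of a different replicate (SD of the log2 difference between 0.0043 and 0.0072), so replicate names within a group are open. It is on a linear scale, not centred on genes (column medians 0.102 to 0.106). It served as an alternative, with 0 columns left out.

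Values analysed were log2 intensity minus the log2 75th percentile of the array over non-control probes, with outlier spots missing. Of 61657 probes, 27460 matched 1 symbol in the GRCr8 gene table and 34197 none. The array is annotated on rn4, so positions are given for promoter sequences only. The probe with the highest mean stood for a gene, and items well above background on at least 3 arrays were tested. All members' probes were well above background on 6 arrays. Of 10 members with several tested probes, 5 (Arsa, Fuca1, Neu1, Npc1, Tpp1) had probes of both signs.

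The test was that of limma 3.58.1, run in R 4.3.3 (lmFit, eBayes with intensity trend, two-sided, Benjamini-Hochberg over all items, threshold 0.05), checked on simulated data. The members and lists were chosen with earlier results of these data known. The naming rule gave array values for members with an unadjusted p under 0.05 and the 3 largest differences in each direction, and the 3 smallest p of each other list. Ctsa, Lamp1, Ctsc, Gm2a and the other list genes named beyond these were chosen after their values were seen. Normexp used the median spot signal, chosen after seeing the files. The labels describe separate animals per group.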

Additional observations from a re-analysis of the deposited data

How the results depend on the processing

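Of 17 alternative settings, those that kept all 6 arrays called 0 items and 0 members in either direction. Leaving out 1 rat called 0 to 1 items higher and 0 to 1 lower, and 0 members in either direction. The median difference of the members stayed between -0.09 and -0.04 in every setting, and all 7 genes lower at an unadjusted p under 0.05 kept a negative difference in each. The number of members lower at that p was 1 without the intensity trend, 4 with the slide as a random block, and 2 to 6 when 1 rat was left out, with 0 to 1 higher. With the replicate number as a block (replicate block), 4 members were lower and 1 higher. Same-numbered rats did not deviate together (correlations -0.0066, -0.015 and 0.024). Since replicate names within a group are open, these correlations cannot show whether rats were paired. The cause of these shifts was not tested.

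Some settings turned the sign of a member's difference. With normexp these members were Ctsd (0.0126), Idua (-0.00794), Arsa (-0.00153), Npc1 (-0.00595), Neu1 (-0.0775) and Fuca1 (-0.00577), with quantile normalization Ctsd (0.00803), and with the median of a gene's probes Arsa (-0.00522) and Fuca1 (-0.025). Leaving out 1 rat turned the signs of these members and markers, given as ranges over the 6 rats left out: Alb -0.033 to 1.22, Arsa -0.0481 to 0.131, Ctsd -0.0554 to 0.012, Fuca1 -0.0131 to 0.0529, Gla -0.195 to 0.00371, Gm2a -0.245 to 0.0196, Idua -0.0248 to 0.093, Lamp1 -0.111 to 0.00454, Lamp2 -0.0379 to 0.0443, Neu1 -0.0575 to 0.148, Npc1 -0.0121 to 0.143, Nphs1 -0.031 to 0.173 and Scarb2 -0.0817 to 0.00506.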
